A study of Paralichthys olivaceus with 2 samples.

Results

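The miR-181 family is a set of microRNAs (miRNAs), short RNAs that pair with mRNAs and repress them, whose members share a seed. Its members were taken here as the array probes named for a zebrafish or pufferfish miR-181 with a letter and no star. Of the 263 probes for known fish miRNAs on the array, 3 met this rule, dre-miR-181a, dre-miR-181b and dre-miR-181c, all with zebrafish names. The RNA was from entire Japanese flounder (Paralichthys olivaceus) larvae, which swim upright at first and turn into asymmetric bottom-living flatfish at metamorphosis. One pool of larvae, collected at 5 per tube, was taken at 17 days post hatching (dph), before metamorphosis per the labels. The other pool, also collected at 5 per tube, was taken at 29 dph, in mid-metamorphosis. Both pools were anaesthetised before collection, the labels give no difference in treatment or genotype between them, and each was hybridised to 1 array. With 1 array per stage there was no replicate and no test between stages, and every SD below is over the 3 spots of a probe, which is technical spread within an array.

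A miRNA pairs with its targets mainly through the seed, bases 2 to 8 from its 5′ end, so members of a seed family can bind overlapping sets of mRNAs. In vertebrates miR-181a and miR-181b are made from hairpins that lie next to each other in clusters. In the mouse miR-181a tunes the sensitivity of T cell receptor signalling and miR-181 takes part in muscle cell differentiation, and in the medaka fish miR-181a and miR-181b act in the growth of retinal axons. In whole larvae, fewer cells of a type and less of the miRNA per cell cannot be told apart.

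The deposited target sequences are shown because the members' likeness decides what each probe can tell apart. They are written 5′ to 3′ with the seed in capitals, and PN101 and PC328 are unnamed candidates on the same array that carry the same seed.
miR-181a: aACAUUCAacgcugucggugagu
miR-181b: aACAUUCAuugcugucgguggg
miR-181c: cACAUUCAuugcugucgguggg
PN101: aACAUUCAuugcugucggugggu
PC328: aACAUUCAuugcugucgcuggga
Of all 987 probes, 5 had this seed at bases 2 to 8, the 3 members and these 2 candidates. Counted from the 5′ end, miR-181c differed from miR-181b by A1C alone, 21 of 22 positions being identical. miR-181a differed from miR-181b by A9U, C10U and A21G over the 22 shared positions. PN101 held the whole miR-181b target with 1 base added at the 3′ end, so it was a second measurement of miR-181b, and it matched miR-181c except at the first base. PC328 differed from miR-181b by G18C and was not nested with a member. How far the miR-181b and miR-181c probes bind each other's RNA was not tested. The miRNA genes' places in the flounder genome were not analysed here.

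Each array had 987 probes in 3 spots. At least 50% of a probe's spots had to exceed the mean + 3 SD of 715 empty spots for detection, a density of 68.7 at 17 dph and 45.6 at 29 dph. Of 252 mature names, 66 were detected at 17 dph and 126 at 29 dph, with all 66 on both arrays. The limit was lower at 29 dph, so part of this difference in number can come from the limits. Most names detected at 29 dph only were brighter there, but a few, such as miR-727, were brighter at 17 dph. Probe spots had a median of 55.4 on the 17 dph array and 139 on the 29 dph array, while empty spots had medians of 45.6 and 38.8. The probes for known fish miRNAs had medians of 45.9 and 45.1. The other probes were 544 PC-coded and 180 PN-coded candidates. Among markers of larval tissues, the skeletal muscle miRNA miR-206 was the brightest on both arrays. Of the other muscle miRNAs, miR-133a and miR-133b were detected on both arrays, and miR-133c and miR-1 at 29 dph only, miR-1 at 7729. The neuronal miRNA miR-124 was detected on both arrays, at 147 and 154, whereas the neuronal miR-9 was detected at 29 dph only, at 167. The blood cell miRNA miR-451 was detected at 29 dph only, at 51.7, which is under the 17 dph limit, and miR-144 on neither array. Of the 21 marker names 18 were detected, 10 of them on both arrays.

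All 3 members were detected on both arrays in all of their spots, and the spots of each were brighter at 29 dph in the deposited densities, before any scaling between the arrays. miR-181a gave densities of 980.3, 1122 and 1116 at 17 dph and 2237, 2322 and 2533 at 29 dph. Its means were 1073 ± 80.2 and 2364 ± 152 (SD, 3 spots). Every 29 dph spot of miR-181a lay above every 17 dph spot, and by the members' own probes it was the brightest of the 3 on both arrays. Among the 252 mature names it ranked 4 in density at 17 dph and 11 at 29 dph.

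**Figure D1:**
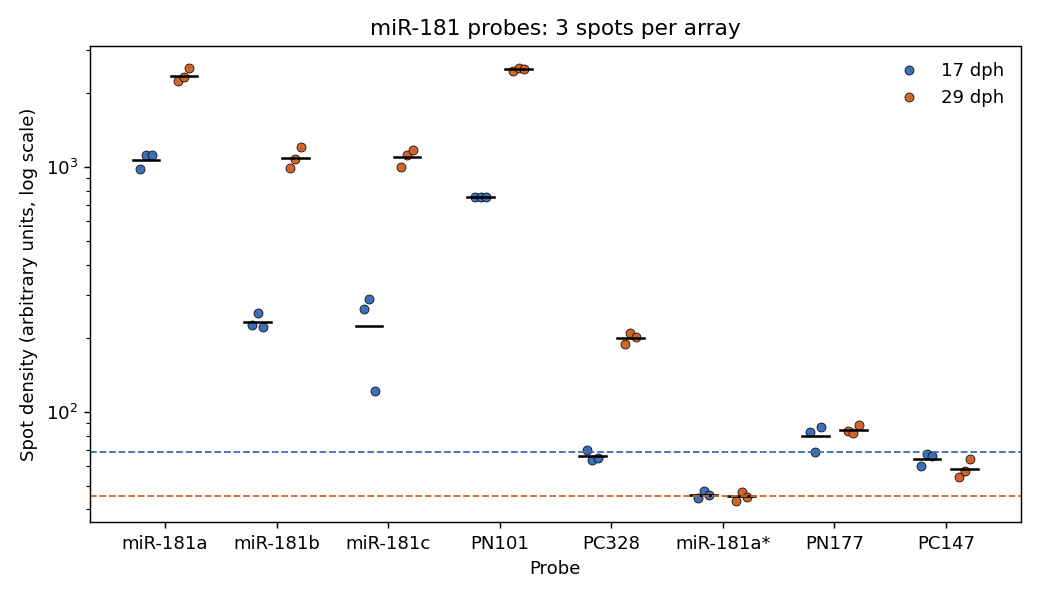
Density of each of the 3 spots (points) and their mean (black bars) on the 17 dph and 29 dph arrays for the 3 miR-181 members, the passenger strand miR-181a* and 4 candidate probes, on a log axis in arbitrary units. Dashed lines are the detection limits of the 2 arrays; 1 spot of miR-181c at 17 dph, at 122, lies apart from the other 2.

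miR-181b gave densities of 226, 253 and 222 at 17 dph and 993, 1075 and 1208 at 29 dph, with means of 234 ± 17.1 and 1092 ± 108. The spots of the 2 arrays did not overlap. Its rank in density went from 15 to 17 of the 252 names, so it stayed at nearly the same place while miR-181a stood 7 places lower.

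miR-181c gave densities of 264, 289 and 122 at 17 dph and 1003, 1121 and 1174 at 29 dph, with means of 225 ± 90.2 and 1099 ± 87.6. The low spot decides how well miR-181c is known at 17 dph. Its spot CV of 40.1% was the second largest, rank 2, of the 412 probes detected at 17 dph, whose median was 8.06%. The low spot stood at 46.1% of the probe's median, and only 2 of the 1236 spots of detected probes were below 50%. Its deposited within-spot st.dev. was 43.0% of its density, against 15.1% and 19.6% in the other spots of miR-181c. The 4 spots of detected probes that bordered it stood between 98.4% and 115% of their own probe medians. Without the low spot the 17 dph mean was 277, above that of miR-181b.

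The second measurement of miR-181b, PN101, had densities of 752.4, 753.5 and 751.4 at 17 dph and 2479, 2549 and 2507 at 29 dph. Its means were 752.4 ± 1.1 and 2511 ± 35.2, so it was brighter than the conserved probe on both arrays. Its spots were close to each other at each stage and the stages did not overlap.

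In order of density at 17 dph, miR-181a came first, miR-181b next and miR-181c last. The spots of miR-181a lay above those of the others, while the spots of miR-181b lay within the range of miR-181c. At 29 dph miR-181a was again first, and miR-181c and miR-181b had overlapping spots, so the order of these 2 was not settled on either array. Measured by PN101 in place of its own probe, miR-181b stood below miR-181a at 17 dph. At 29 dph the PN101 mean of 2511 was above the 2364 of miR-181a, with overlapping spots. Probes bind with different strength, so these orders are of brightness and not of amounts of RNA.

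A measure that no single scale factor can move is the density of a member set against that of miR-181a on the same array, after the median of the empty spots is taken off. For miR-181b this was 18.3% at 17 dph, with 16.4% to 22.2% as the extremes over pairs of spots. At 29 dph it was 45.3%, with 38.3% to 53.2%. For miR-181c it went from 17.5% (7.09% to 26.0%) to 45.6% (38.6% to 51.6%). For PN101 it went from 68.8% (65.6% to 75.7%) to 106% (97.8% to 114%). In all 3 pairs the ranges of the 2 stages did not overlap, so miR-181b, miR-181c and PN101 each stood higher against miR-181a at 29 dph than at 17 dph. Whether the density stays proportional to the RNA over this range was not tested.

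Differences between the stages were then taken as log2 differences, 29 dph minus 17 dph, after background correction and quantile normalization, which makes the values of all probes equally distributed on the arrays. A call needed detection, a difference of 1 or more in either direction, and no overlap between the 17 dph and the 29 dph spots. By this rule 1 of the 3 members, miR-181a, was lower and 0 were higher, where 17.5% of the 126 detected names were called lower and 8.73% higher. All 22 names called lower were among the 66 detected on both arrays, as the 3 members were. Among names detected like the members, 22 of 66 were therefore called lower, a larger share than 17.5%, and this is the share to set beside 1 of 3. With so few members, 1 of 3 says little about the family as a whole.

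The normalized log2 signal of miR-181a was 11.36, 11.50 and 11.49 at 17 dph and 9.68, 9.74 and 9.88 at 29 dph, a difference of -1.68. That of miR-181b was 9.33 ± 0.12 at 17 dph and 8.84 ± 0.12 at 29 dph, a difference of -0.49, with spots that did not overlap but a size under the threshold. That of miR-181c was 9.17 ± 0.78 and 8.85 ± 0.094, a difference of -0.32 with overlapping spots. Without the low spot, a setting chosen after the data were seen, miR-181c had a difference of -0.76 with spots that did not overlap, still under the threshold. PN101, the second measurement of miR-181b, went from 11.06 to 9.87, a difference of -1.19, and met the call rule for lower, so the call for miR-181b depended on the probe. The median difference of the members was -0.49, against -0.29 over the 126 detected names.

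The sign of these differences followed the scaling. Over 11 ways of scaling and background correction, the authors' table included, miR-181a ran from -1.99 to 1.22 and was negative in 9. miR-181b ran from -0.73 to 2.24 and miR-181c from -0.82 to 2.38, negative in 8 and 7. With no scaling between the arrays all 3 were called higher, at 1.13, 2.15 and 2.30, where 50.8% of detected names were called higher, and the median of the detected names was 1.07. With the conserved probes alone as the base of the quantile normalization, miR-181a stood at -1.23 and was called lower, as were 8.73% of names, while miR-181b was at -0.053 and miR-181c at 0.10.

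**Figure D2:**
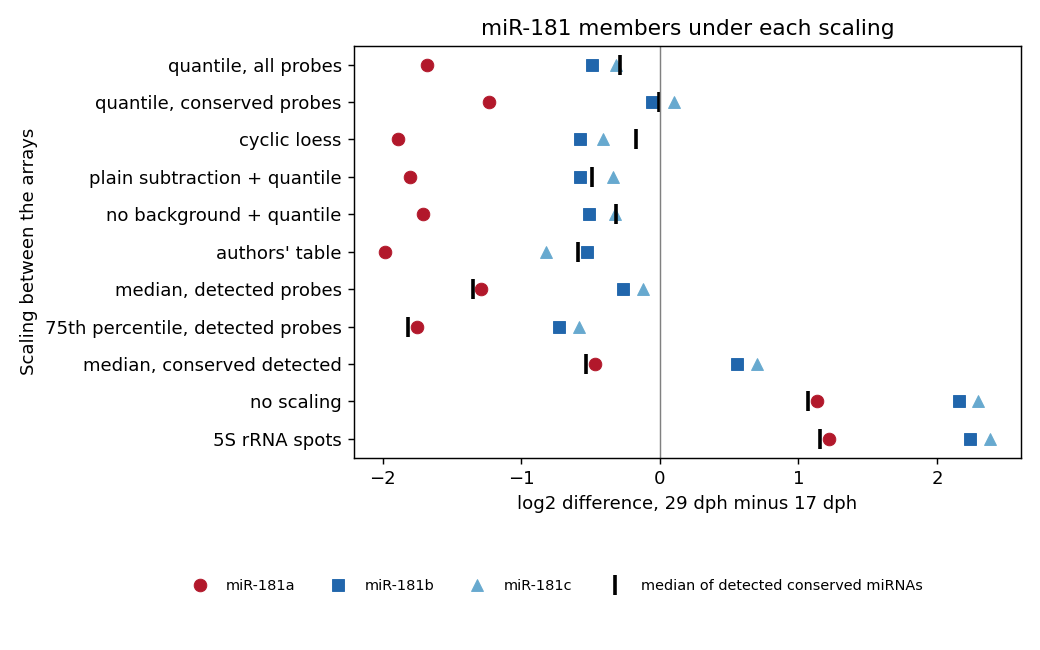
log2 difference (29 dph minus 17 dph) of miR-181a, miR-181b and miR-181c under each of 11 scalings, with the median of the detected conserved miRNAs as a black bar. miR-181a lies to the left of miR-181b and miR-181c in every line, while all markers move across 0.

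The difference of miR-181a was the lowest of the 3 under each scaling, whereas miR-181b and miR-181c changed places in the authors' table. No scaling and the 4 scalings with 1 factor per array cannot move a gap between members, so these 5 give the same gap and the 11 give 7 separate values. The gap of miR-181a to miR-181b was -1.02 in these 5, -1.19 with quantile normalization and no larger in size than -1.46. Its gap to miR-181c was -1.17 in these 5, -1.36 with quantile normalization and no larger in size than -1.48. The spot spread of these values was 0.21 for the first and 0.80 for the second, which the low spot of miR-181c sets. Without that spot the gap to miR-181c was -0.92. With PN101 in place of the miR-181b probe the gap was -0.49 with quantile normalization and -0.72 to -0.49 over the scalings that gave PN101 a value. The 2 probes of miR-181b therefore gave the same direction but unlike sizes, -1.19 and -0.49 with quantile normalization and -1.02 and -0.59 with no scaling. With quantile normalization the difference of PN101, -1.19, was nearer to that of miR-181a, -1.68, than to that of the miR-181b probe, -0.49. With no scaling PN101, at 1.72, was nearer to the miR-181b probe, at 2.15, than to miR-181a, at 1.13.

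In the deposited densities without any scaling, the ratio of 29 dph to 17 dph was 2.20 for miR-181a, with extremes of 1.99 and 2.58 over pairs of spots. It was 3.34 for PN101, from 3.29 to 3.39. It was 4.68 for miR-181b, from 3.92 to 5.45, and 4.88 for miR-181c, from 3.47 to 9.63. The range of miR-181a overlapped none of the others, and that of PN101 lay between miR-181a and the other members.

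Set against the 66 names detected on both arrays, miR-181a lay below the middle and miR-181b above it by its own probe. The side of miR-181c rested on its low spot with quantile normalization, the only scaling under which that spot was left out. The median difference of the 66 was -0.70 with quantile normalization, which put miR-181a at -0.98 relative to it, miR-181b at 0.21 and miR-181c at 0.39. Ranked from the lowest difference, miR-181a was 7 of 66, miR-181b 38 and miR-181c 47. Relative to this median, miR-181a was -0.12 with no scaling or 1 factor per array and between -1.13 and -0.75 with the other 6 scalings, and its rank ran from 6 to 27. miR-181b was 0.90 with no scaling or 1 factor per array and at least 0.18 with the others. miR-181c ran from 0.34 to 1.05 over the 11 scalings and was 0.36 in the authors' table. With quantile normalization and the median of the 3 spots it was 0.084. Without its low spot, which was left out only after its value was known, it stood at -0.013 with quantile normalization, rank 32 of 66, and with spot 3 left out on both arrays at -0.020. PN101 did not keep the side of the miR-181b probe. It was 0.47 with no scaling or 1 factor per array, and between -0.52 and -0.091 with the other 5 scalings that gave it a value. Against the median of all 126 detected names, which includes those below the limit at 17 dph, miR-181a stood at -1.39 with quantile normalization and at 0.062 with a single factor per array or none.

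**Figure D3:**
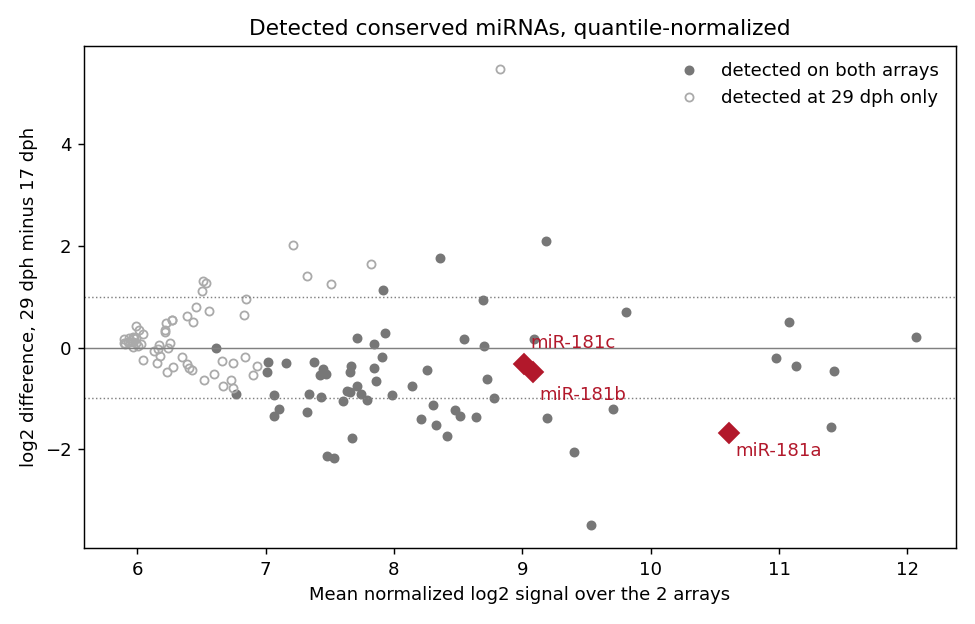
Mean normalized log2 signal (horizontal) and log2 difference, 29 dph minus 17 dph (vertical), of the 126 detected conserved miRNAs, with dotted lines at the call size of 1 in both directions. miR-181a lies at -1.68 among the brighter miRNAs, and miR-181b and miR-181c lie at -0.49 and -0.32.

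The miRNAs most like each member were taken as those detected on both arrays with the nearest log2 difference, a likeness over 2 arrays only. For miR-181a these were miR-22a at -1.67, miR-10d at -1.74 and the neuronal miR-124 at -1.77. Of these, miR-22a also had nearly the same densities as miR-181a, 1065 and 2367. For miR-181b they were miR-107b at -0.48, miR-128 at -0.48 and miR-15a at -0.51. For miR-181c they were miR-10b at -0.29, miR-221 at -0.29 and miR-30c at -0.28. None of the 9 had the seed of the family, which no conserved probe outside the family carried. The nearest miRNAs of miR-181c rested on its low spot, without which they were miR-205 at -0.75, miR-210* at -0.75 and miR-143 at -0.85. They also rested on the scaling. With none, miR-10d was at 0.58 and miR-124 at 0.070, against 1.13 for miR-181a. miR-22a stayed close at 1.15, which its nearly equal densities on both arrays fix in advance.

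Members of other seed families also differed among themselves. With quantile normalization, 13 seed families had 3 or more detected members, and the range of differences within the miR-181 family, 1.36, came 7 in order from the widest. The widest was that of miR-15 and miR-16, at 2.16, and the narrowest that of miR-103 and miR-107, at 0.12. Many of these families held members below the detection limit at 17 dph. Of the 5 families with every counted member detected on both arrays, the miR-181 family came 3 in order, after that of miR-125 at 2.13 and that of miR-25 and miR-92 at 2.12. The range of the miR-17 and miR-20 family was 0.62. The upper end of the miR-181 range was miR-181c, whose value rested on its low spot. Without that spot miR-181c was at -0.76, and the range was the gap of miR-181a to miR-181b, -1.19. This gap was smaller in size than the 1.32 of miR-200b, miR-200c and miR-429, the family 8 in order, and larger than 0.62.

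**Figure D4:**
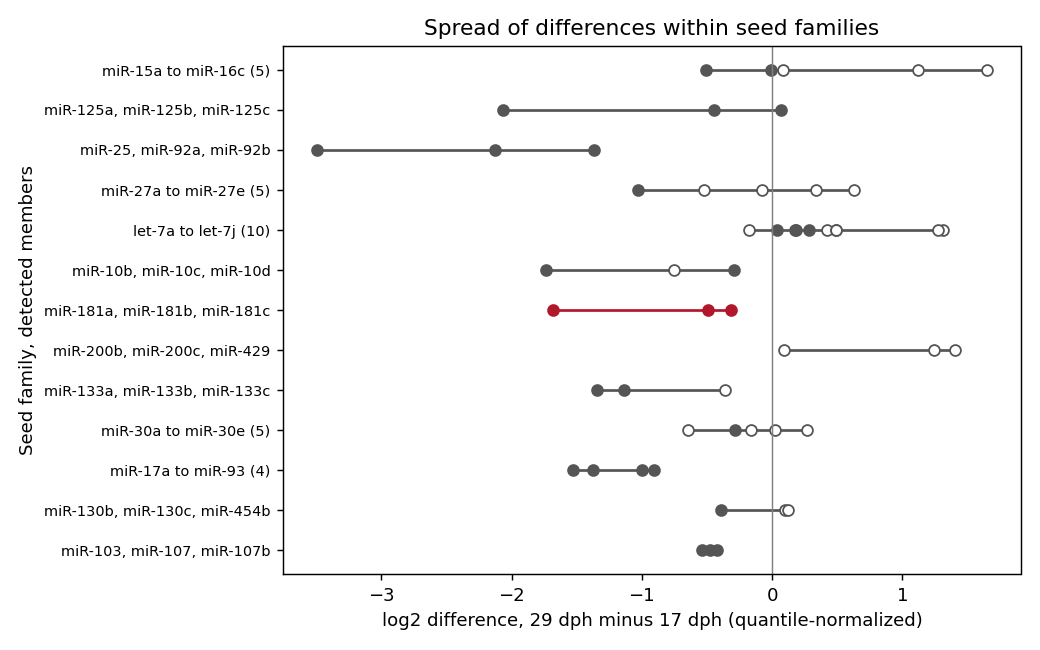
log2 difference (29 dph minus 17 dph, quantile-normalized) of each detected member of the 13 seed families with 3 or more detected members, ordered by their range. Filled points were detected on both arrays and open points at 29 dph only; the miR-181 family, in red, has a range of 1.36 with the low spot of miR-181c included.

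The passenger strand, the other arm of the miR-181a hairpin, had a probe named miR-181a*. Its densities were 44.6, 47.5 and 45.9 at 17 dph and 43.5, 47.2 and 44.9 at 29 dph, near the empty spots, and it was not detected on either array. Candidate probes PN177 and PC147 had nearly the same target. The sequences are shown because 1 or 2 substitutions set the 3 targets apart. Capitals mark the bases that differ from miR-181a*.
miR-181a*: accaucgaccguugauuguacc
PN177: accaucgaccguugauuguGcc
PC147: accaucgaccguugaCuguGc
PN177 differed by A20G, and PC147 by U16C and A20G and by lacking the last base. PN177 was detected on both arrays, with densities of 82.8, 68.8 and 86.7 at 17 dph and 84.0, 82.0 and 88.2 at 29 dph, so its spots overlapped. Its log2 difference was -1.14 with quantile normalization and 0.11 with no scaling, so that the call of lower rested on the scaling. PC147 was detected at 29 dph only, at 58.6 ± 5.2, with 64.6 ± 3.8 at 17 dph, where the limit was higher. These candidates and PC328 were picked for their sequence after values had been seen.

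PC328, with the miR-181 seed and a single substitution in the miR-181b target, had densities of 69.7, 63.6 and 64.8 at 17 dph and 190.3, 209 and 203 at 29 dph. Of its 17 dph spots 1 was above the limit, so it was detected at 29 dph only. The spots of the 2 arrays did not overlap. Its log2 difference was -0.11 with quantile normalization, which was not called, and 1.42 with no scaling, which was called higher. The direction of its difference therefore rested on the scaling. Whether this signal is RNA of its own or miR-181b bound to a near match was not tested.

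Since miR-181 is known from the nervous system, the retina and blood cells, miRNAs of these tissues were described beside it. Of 17 names in the nervous system and retina list, 12 were detected, 0 were higher, 2 lower and 10 neither, beside 8.73% higher and 17.5% lower among all detected names. The list's median difference was -0.10, against -0.29 over all detected names. Only 5 of the 12 were detected on both arrays, and the others were below the limit at 17 dph. These 5 were miR-124 at -1.77, miR-132 at -1.34, miR-183 at -0.92, miR-182 at -0.66 and miR-184 at -0.19. The median of all 66 names detected on both arrays was -0.70. These differences and calls were with quantile normalization. The 2 lower names were miR-124 and miR-132, and the most positive was miR-9 at 0.80, below the limit at 17 dph. Before any scaling, miR-124 had mean densities of 147 and 154 and miR-132 of 89.5 and 91.3, so neither mean was lower at 29 dph. The brightest of the list was miR-124 at 17 dph and miR-184 at 29 dph, at 454. Of 11 names in the blood and immune list 3 were detected, miR-146a, miR-150 and miR-451, all at 29 dph only, and 0 were called. Their 29 dph densities of 47.4 to 55.8 were under the 17 dph limit of 68.7, so the same densities would not have been detected at 17 dph. The part of either tissue in the miR-181 signal was not tested.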

How the data were processed

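Small RNAs of 2 larval pools, 1 per stage, were size-filtered from Trizol RNA, extended with a poly(A) tail, tagged and stained with Cy5, per the labels' protocols. The deposited array files give a mean density per spot, a linear intensity, and a within-spot st.dev.; judged from the values, no background had been subtracted and no scaling applied. The authors' deposited series table gives 1 processed intensity per probe on a linear scale; how background and scaling were handled is not given in the sources used here.

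Densities of all 3968 spots were corrected with normexp (offset 50) in limma 3.58.1 under R 4.3.3, log2-transformed, quantile-normalized across probe spots and averaged per probe (3 spots) and then per mature name. After the background step, control spots were not used. Quantile normalization removes any overall difference between the arrays. Empty spots set the detection limit. Tables were made with Python 3.11.15, NumPy 2.4.6 and pandas 2.3.3. Candidate probes were searched for targets within 2 edits of a miR-181 target. Alternatives were other scalings (5S rRNA spots and conserved probes included), background steps, spot summaries, thresholds and limits, removal of the GC trend, and nested probes.

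The named miRNAs were the miR-181 probes, nested candidates, the 3 nearest differences per member, and the brightest and most different members of the tissue lists. Members and lists were chosen with earlier results of these data known. The number of arrays limits the precision.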

Additional observations from a re-analysis of the deposited data

Results flagged for a closer look

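Candidate probes close in sequence to miR-181 stood above the 29 dph detection limit of 45.6 although they have no place in the comparison of named miRNAs. PC328 had a mean density of 200.7 at 29 dph, PN177 one of 84.7 and PC147 one of 58.6, against a median of 38.8 in the empty spots.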

How the results depend on the processing

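With 1 array per stage no setting has a replicate behind it. No paired analysis was possible because the stages have 1 sample each. The log2 difference of miR-181a was 1.13 with no scaling and 1.22 with the 5S rRNA spots as the base, both opposite to the -1.68 of quantile normalization. It was -0.47, and not called, with the median of the conserved probes detected on both arrays as the base, and its -1.68 was not called at a threshold of 4-fold. miR-181b was positive at 2.15, 2.24 and 0.56 under the first 3 of these, and PN101 in its place gave -1.19, which was called lower. miR-181c was positive at 2.30, 2.38 and 0.70 under the same 3, at 0.10 with quantile normalization over conserved probes alone and at 0.58 with the GC trend removed, where miR-181a was -1.42 and still called. The median of the 5S rRNA spots falls between 5S probes of very different density. The family median relative to the detected names, -0.20, was 1.09 with no scaling and with each of the 4 single-factor scalings, -0.40 with cyclic loess, -0.39 with the median of the spots, -0.50 with spot 3 left out, -0.91 with PN101 and 0.23 with the GC trend removed. The gap between miR-181a and miR-181b, -1.19, was -1.46 in the authors' table and -0.49 with PN101. The level of miR-181b minus that of miR-181c became 1.89 at 17 dph and 1.01 at 29 dph with PN101, against 0.16 and -0.012.

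The calls over all detected names, 11 higher and 22 lower, were 64 and 1 with no scaling, 6 and 83 when scaled by the median of probes above the limit at both stages, 3 and 95 with their 75th percentile, and 66 and 0 with the 5S rRNA spots. They were 15 and 11 with quantile normalization over conserved probes, 15 and 46 with the median of conserved probes, 5 and 23 with cyclic loess, 30 and 43 with plain subtraction, and 23 and 48 in the authors' table, which has no spots to compare. With the GC trend removed they were 7 and 13, at 1.5-fold 18 and 39, and at 4-fold 3 and 4. Between no scaling and the 4 scalings with 1 factor per array, the differences of all names move by the same amount, and their counts follow from that. The cause of the other shifts was not tested, apart from the thresholds themselves.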

Other observations

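In the authors' deposited table the processed intensities at 17 dph were 541 for miR-181b and 657 for miR-181c, and at 29 dph 375 and 373. The spot means at 17 dph had the opposite order, 234 and 225, and the 17 dph order was that of the authors' table when the low spot of miR-181c was left out, at 277. At 29 dph the spot means, 1092 and 1099, were also in the opposite order to the authors' table, with overlapping spots. In the same table miR-181a stood at 3084 at 17 dph and 779 at 29 dph, PN101 at 2057 and 855, and PC328 at 66.2 and 62.1.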
